A study of Mus musculus with 15 samples.

Results

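The liver makes most of the clotting and complement proteins of plasma, and 37 genes for such proteins were followed through 15 arrays of primary mouse hepatocytes. The genes were listed by function (clotting factors and their inhibitors, fibrinogen, fibrinolysis, and the lectin, classical, alternative and terminal complement components that hepatocytes secrete). A gene counted when a probe set of the array was assigned to it and to no other gene. This held for 35 of the 37, 21 of coagulation and 14 of complement, out of 18193 genes so named; all 35 were among the 16294 genes tested. Expression of C3 and Cpb2 was not analysed here.

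Hepatocytes of C57BL/6 mice were kept in a serum-free medium, HepatoZYME-SFM, and every group was infected with an adenovirus, the controls included. Without further treatment, cells carried EGFP (the control protein), wild-type IRE1a or the S724A form of IRE1a for 48 hours. With glucagon added for 4 hours at the end, cells carried a control hairpin (shCON) or a hairpin against IRE1a (shIRE1a) for 72 hours. IRE1a, encoded by Ern1, is a kinase and endoribonuclease of the endoplasmic reticulum membrane that senses unfolded proteins, and S724A replaces a serine of its activation loop, a phosphorylation site, with alanine. Each group had 3 arrays. The series text describes the experiments as independent without saying whether animals differed, so the p-values measure the spread between these arrays, which may be technical.

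All of these proteins pass through the endoplasmic reticulum on their way to plasma. Clotting is a cascade of serine proteases that ends when thrombin cuts fibrinogen into fibrin. Several of the proteases carry glutamates that a vitamin K-dependent carboxylase modifies in the endoplasmic reticulum, and serpins and protein C hold the cascade in check. Complement is a parallel cascade: its pathways meet at C3 and C5, and the terminal components C5 to C9 form a pore in target membranes. Liver transcription factors of the HNF1, HNF4 and C/EBP families are known to drive many of these genes in hepatocytes.

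The bases before the annotated start are shown for the genes that fell with both forms of IRE1a and had a promoter window, and for Fgb, a fibrinogen chain that did not fall. They are the 250 bases upstream of the start from RefSeq (GRCm38.p6), written 5′ to 3′ on the strand of the gene, with capitals on matches to GTTAAT (1 arm of the HNF1 palindrome) or TTGCNNAA (a C/EBP motif) on either strand. The Hc window is chr2:35061413-35061662 on the minus strand, F2 chr2:91636458-91636707 on the minus strand, F7 chr8:13025784-13026033 on the plus strand, F12 chr13:55426805-55427054 on the minus strand and Fgb chr3:83049864-83050113 on the minus strand.
Hc: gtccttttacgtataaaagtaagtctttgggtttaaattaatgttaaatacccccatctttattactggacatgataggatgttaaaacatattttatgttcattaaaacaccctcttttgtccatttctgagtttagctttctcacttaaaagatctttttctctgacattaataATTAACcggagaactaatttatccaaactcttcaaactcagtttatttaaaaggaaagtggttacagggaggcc
F2: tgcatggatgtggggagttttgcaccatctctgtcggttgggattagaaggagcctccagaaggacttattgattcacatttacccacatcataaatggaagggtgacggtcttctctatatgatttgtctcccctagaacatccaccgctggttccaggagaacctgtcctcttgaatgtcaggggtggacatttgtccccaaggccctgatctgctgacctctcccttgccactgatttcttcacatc
F7: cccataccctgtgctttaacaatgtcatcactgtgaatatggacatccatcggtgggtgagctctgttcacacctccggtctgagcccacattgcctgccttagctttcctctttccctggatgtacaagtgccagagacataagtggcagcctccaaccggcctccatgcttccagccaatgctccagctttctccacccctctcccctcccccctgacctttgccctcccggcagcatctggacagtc
F12: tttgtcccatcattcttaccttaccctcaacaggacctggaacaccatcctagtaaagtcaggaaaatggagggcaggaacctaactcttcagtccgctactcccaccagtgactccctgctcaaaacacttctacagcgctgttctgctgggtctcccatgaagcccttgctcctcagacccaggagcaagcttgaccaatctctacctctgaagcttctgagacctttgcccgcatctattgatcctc
Fgb: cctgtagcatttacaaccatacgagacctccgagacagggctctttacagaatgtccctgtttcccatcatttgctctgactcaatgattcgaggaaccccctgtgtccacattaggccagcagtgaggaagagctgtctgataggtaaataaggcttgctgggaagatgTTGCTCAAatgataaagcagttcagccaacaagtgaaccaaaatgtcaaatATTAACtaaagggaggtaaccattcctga
Hc carries 1 match to GTTAAT, Fgb carries 1 to each motif, and none of these letters lie in the stretches of F2, F7 and F12 shown.

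Promoter windows of 300 bases, 250 before the start to 50 after it, were at hand for 30 of the 37 genes. GTTAAT lay in 10 of the 30 (33.3%), against 8.24% of the 27025 genes with a window. The 10 were F2, F13b, Proz, Fga, Fgb, Vtn, Hc, C8a, C8b and C4bp, so the match occurred in 3 of the 4 fibrin formation genes and 3 of the 6 terminal complement genes; in F2 it begins 8 bases past the start. TTGCNNAA lay in 9 of the 30 (30.0%), against 12.2% of all genes: F9, F11, Serpinc1, Fga, Fgb, Klkb1, Cpb2, C3 and C9. The longer forms were in none of the 30 windows: the HNF1 palindrome that joins GTTAAT and ATTAAC around 1 free base (0.0111% of all genes), the HNF4 motif CAAAGTCCA (0.555%) and the C/EBP palindrome TTGCGCAA (0.207%), which is contained in TTGCNNAA. Among motifs of the unfolded protein response, TGACGTGG and the ER stress element ERSE were in none (0.714% and 0.137% of all genes), and CCACGT, which the reverse complement of TGACGTGG contains, was in Proz and Masp2 (6.67% against 9.40%). The cyclic AMP response element TGACGTCA, the motif of the glucagon pathway, was in Cpb2 alone (3.33% against 2.03%). Both strands were searched throughout, and a match is a description of the letters, not evidence of a bound site.

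The hairpin label was checked on Ern1 first. The Ern1 signal, on the log2 scale of all values given here, was 8.89, 8.96 and 9.10 with shCON and 7.60, 7.44 and 7.51 with shIRE1a. The groups did not overlap, and the change was -1.47 ± 0.19 (SE, adjusted p = 0.00293 by limma over all genes). Of the 5 Ern1 probe sets, 4 were lower with shIRE1a, and the 1 that was higher had a mean signal of 3.87. The probe set that stood for Ern1 changed by 0.12 ± 0.19 with wild-type and 0.46 ± 0.19 with S724A IRE1a and passed with S724A only when the replicate number was fitted as a block (adjusted p = 0.159 without and 0.0215 with the block, limma). Whether any Ern1 probe set lies within the viral construct is not stated in the labels, so these values do not check those labels.

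Across the arrays, the median signal lay between 5.69 and 5.83 and between 79.0% and 81.4% of probe sets reached 4. The hepatocyte markers were present in every group: 15 of 16 listed had a probe set, all 15 were above 4, and their summed log2 signal was 151.5 to 157.4 on any array. Among markers of Kupffer cells, endothelium, stellate cells, bile duct, blood cells and platelets, Cd163, C1qb, Timd4, Vwf, Lrat, Col3a1, Krt7, Ptprc, S100a8 and Ppbp had means under 4 in every group, while the macrophage marker Cd68 had means of 11.33 to 12.07. Most of each list was at 4 or more, and Acta2, for example, had means of 6.88 to 7.33. With EGFP, the means under 4 were 3 of 13 for Kupffer cells, 1 of 10 for endothelium and 2 of 10 for stellate cells. They were 1 of 5 for bile duct, 2 of 7 for lymphocytes and neutrophils and 1 of 5 for platelets. No marker of these other cell types passed the threshold in a comparison within the 48-hour or the 72-hour arm. The 3′ minus 5′ signal of Actb, a sign of RNA quality, was 0.380 to 0.609 on 14 arrays and 0.996 on wild-type IRE1a replicate 3. The same measure of Gapdh was 0.119 to 0.228 with shCON, above the 0.0617 to 0.110 of EGFP and the 0.0582 to 0.0937 of shIRE1a; it moved with both comparisons that use shCON, and its part in them was not tested. All of the 35 genes were above 4 on every array, with 5.804 as the lowest value.

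The wild-type virus was set against EGFP to ask which of these transcripts moved when the protein was in excess. At an adjusted p under 0.05 (limma, Benjamini-Hochberg over 16294 genes), 7 of the 35 fell and 1 rose: F2, F7 and Proc of the vitamin K-dependent group, F12 of the contact system, Cfi, a complement regulator, and Hc and C6 of the terminal pathway fell, and Masp1 of the lectin pathway rose. Over all genes tested, 2.59% fell and 5.08% rose. The 35 were chosen with earlier results of these data known, so their counts are no independent test against these shares. The same 8 passed without wild-type replicate 3, the array with the high Actb value. The median change of the 35 was -0.29, against 0.00 for all genes. In 18 of the 35 all 3 arrays lay below all 3 EGFP arrays (10.9% of all genes), and in 5 all lay above (15.8%). In RNA from whole cultures, fewer hepatocytes and less RNA per cell cannot be told apart; the 15 hepatocyte markers had a median change of 0.02, and 1 of them, Hnf4a, passed the threshold, with a mean of 10.58 with EGFP and 11.32 with wild-type.

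With S724A IRE1a, 5 of the 35 fell against EGFP and 1 rose, where 2.25% of all genes fell and 3.87% rose. These were F2, F7, Proc, F12 and Hc, which fell, and Masp1, which rose. The median change of the 35 was -0.12, against -0.01 for all genes. All 3 arrays lay below EGFP in 13 of the 35 (16.8% of all genes) and above in 6 (16.5%). Both comparisons share the EGFP arrays, so their common genes are no independent repeat. Beside these values, the summed log2 signal of 3 marker lists was lower with S724A than with EGFP on every array: 54.9 to 55.3 against 56.1 to 57.5 for endothelium, 49.7 to 50.7 against 51.8 to 52.5 for stellate cells and 30.7 to 31.4 against 31.8 to 33.1 for lymphocytes and neutrophils. No single marker passed, and the part of these lists in the result was not tested.

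Arrays with the same replicate number deviated together within an arm, and a fit with that number as a block changed the count for wild-type IRE1a: 13 of the 35 fell and 2 rose, where 4.99% of all genes fell and 10.6% rose. The genes added were Fgb, which rose, and Plg, Vtn, Cfb, C8a, C8b and C9, which fell. All of these also passed without a block when only the 6 arrays compared were fitted, while C6 was lost. No share over all genes was taken for that fit, so whether calls grew over all genes alike cannot be told. For S724A the blocked fit gave 7 that fell and 2 that rose, against 5.52% and 8.89% of all genes. The genes added were F13b and C8a, which fell, and Serpind1, which rose. When only the 6 arrays compared were fitted, F13b and C8a passed as well, but Serpind1 did not. That fit also added Fgb, which rose, and Fgg, which fell, and it lost Masp1.

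**Figure D1:**
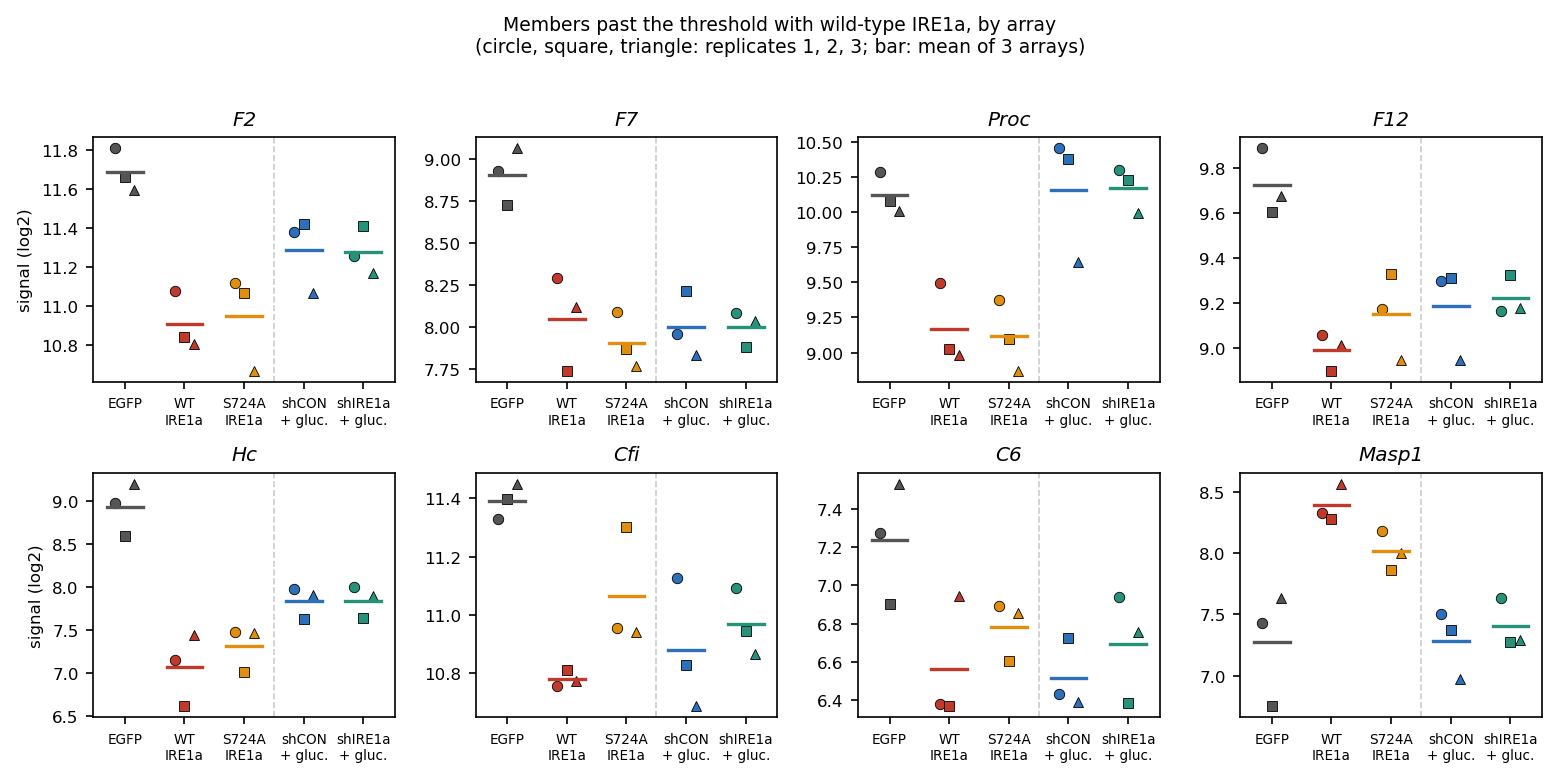
Deposited log2 signal (vertical axis) of the 8 genes that passed the threshold with wild-type IRE1a, in each of 5 groups (horizontal axis; gluc., glucagon); symbols are replicates 1, 2 and 3, bars are means of 3 arrays, and the dashed line parts the 48-hour from the 72-hour groups. Hc lies at 8.60 to 9.20 with EGFP and at 6.62 to 7.48 with either form of IRE1a, and no group with a hairpin stands apart from the other.

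Among the 7 vitamin K-dependent genes, 3 fell with both forms, where 2.59% of all genes fell with wild-type and 2.25% with S724A. F2 encodes prothrombin, the precursor of thrombin, and its signal was 11.81, 11.66 and 11.60 with EGFP, 11.08, 10.84 and 10.80 with wild-type and 11.12, 11.07 and 10.67 with S724A. The IRE1a arrays all lay below the EGFP arrays, and the changes were -0.78 ± 0.14 (adjusted p = 0.00268, limma) and -0.74 ± 0.14 (adjusted p = 0.00485, limma), or 1.72-fold and 1.67-fold lower.

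F7 encodes factor VII, the protease that starts the cascade together with tissue factor. The F7 signal was 8.93, 8.72 and 9.07 with EGFP, 8.29, 7.74 and 8.12 with wild-type and 8.09, 7.87 and 7.77 with S724A, with no overlap between EGFP and either form. The changes were -0.86 ± 0.15 and -0.9997 ± 0.15 (adjusted p = 0.00263 and 0.000919, limma). Proc encodes protein C, which once activated cuts factors V and VIII and so restrains clotting. The Proc signal was 10.28, 10.08 and 10.01 with EGFP, 9.49, 9.02 and 8.98 with wild-type and 9.37, 9.10 and 8.87 with S724A. Again no IRE1a array reached the EGFP arrays, and the changes were -0.96 ± 0.20 and -1.01 ± 0.20 (adjusted p = 0.00921 and 0.00814, limma).

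The other 4 vitamin K-dependent genes did not pass the threshold with either form. F9 (factor IX) changed by -0.29 ± 0.15 with wild-type and -0.15 ± 0.15 with S724A, F10 (factor X) by -0.11 ± 0.25 and -0.37 ± 0.25, Pros1 (protein S, the cofactor of protein C) by 0.00 ± 0.27 and 0.39 ± 0.27, and Proz (protein Z) by 0.21 ± 0.32 and 0.23 ± 0.32. F10 lies between F7 and Proz in the genome with no other protein-coding gene between them, so of these 3 neighbours F7 alone passed.

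Of the 5 cofactor and contact system genes, F12 fell. It encodes factor XII, the protease that contact with a negatively charged surface activates. The F12 signal was 9.89, 9.60 and 9.68 with EGFP, 9.06, 8.90 and 9.01 with wild-type and 9.17, 9.33 and 8.95 with S724A, without overlap. The changes were -0.73 ± 0.13 (adjusted p = 0.00238, limma) and -0.57 ± 0.13 (adjusted p = 0.0151, limma); the second was lost without EGFP replicate 1 or S724A replicate 3, where its adjusted p was at most 0.0758.

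The partners of factor XII did not pass. Kng1 (kininogen, its cofactor) read 11.72, 11.60 and 11.71 with EGFP, 11.59, 11.28 and 11.37 with wild-type and 11.71, 11.75 and 11.50 with S724A, which is a change of -0.26 ± 0.20 with wild-type. Klkb1 (plasma prekallikrein) changed by 0.07 ± 0.14 and F11 (factor XI) by 0.11 ± 0.24, and F5, the cofactor of factor X, by -0.54 ± 0.27 with overlapping arrays.

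None of the 4 fibrin formation genes passed in the unblocked fit, and the 3 fibrinogen chains did not move alike. Fgb, the beta chain, read 11.42, 11.06 and 10.72 with EGFP, 12.28, 11.99 and 11.89 with wild-type and 11.78, 11.76 and 11.80 with S724A. Both forms of IRE1a lay above EGFP on every array, and the change with wild-type was 0.98 ± 0.45 (adjusted p = 0.218, limma; 0.0246 with the block). Fgg, the gamma chain, read 11.75, 11.63 and 11.18 with EGFP, 11.30, 10.92 and 10.55 with wild-type and 11.02, 10.76 and 10.72 with S724A. Its changes were -0.60 ± 0.41 and -0.69 ± 0.41, and neither passed with or without the block. The alpha chain, Fga, changed by 0.47 ± 0.44 with wild-type and 0.06 ± 0.44 with S724A. The 3 chains are the products of neighbouring genes and are assembled into 1 protein.

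F13b, the carrier subunit of the factor that cross-links fibrin, changed by -0.45 ± 0.27 with wild-type and -0.83 ± 0.27 with S724A (adjusted p = 0.0870, limma; 0.00484 with the block). Of the anticoagulant serpins, Serpinc1 (antithrombin) read 12.04, 11.98 and 12.16 with EGFP, 11.89, 11.77 and 11.73 with wild-type and 11.85, 12.14 and 12.01 with S724A; its change with wild-type was -0.27 ± 0.10 and did not pass. Serpind1 (heparin cofactor II) changed by 0.32 ± 0.24 and 0.53 ± 0.24, the latter past the threshold only with the block (adjusted p = 0.0414, limma).

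The fibrinolysis group split. Plg (plasminogen, the precursor of the protease that dissolves fibrin) read 10.83, 10.53 and 10.57 with EGFP, 10.07, 9.93 and 9.84 with wild-type and 10.60, 10.64 and 10.35 with S724A. Wild-type arrays lay below both other groups; the change from EGFP was -0.70 ± 0.34 (adjusted p = 0.251, limma; 0.000683 with the block). Vtn (vitronectin, which binds the plasminogen activator inhibitor and the terminal complement complex) read 12.10, 12.06 and 12.003 with EGFP, 11.70, 11.55 and 11.24 with wild-type and 11.97, 12.10 and 11.75 with S724A.

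For Vtn, too, the wild-type arrays were the lowest, and the change was -0.56 ± 0.18 (adjusted p = 0.0718, limma; 0.00404 with the block). Its other probe set changed by -0.69 ± 0.19, with an adjusted p of 0.0495 by limma over all probe sets. Serpinf2 (the plasmin inhibitor alpha-2-antiplasmin) changed by 0.31 ± 0.29.

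**Figure D2:**
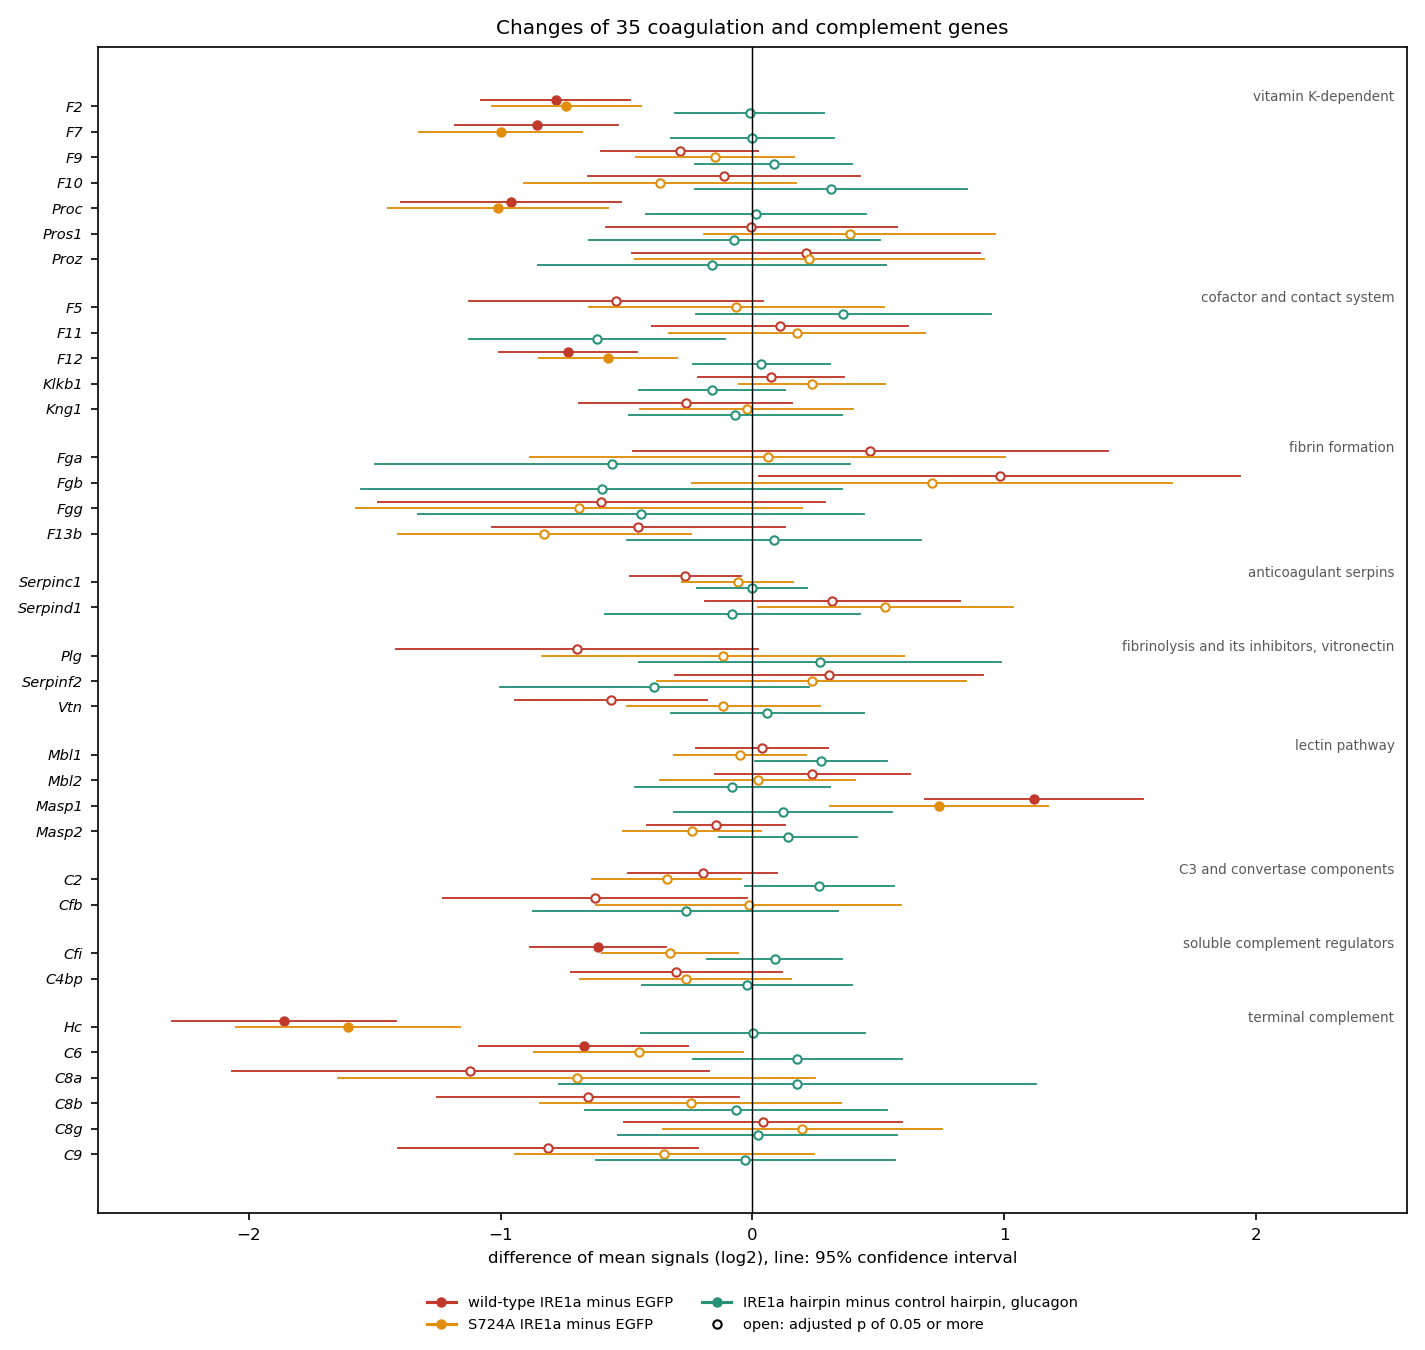
Change in mean log2 signal (horizontal axis) of each of the 35 genes, grouped by role, for the 2 IRE1a viruses, each against EGFP, and for the IRE1a hairpin against the control hairpin; lines are 95% confidence intervals from limma and filled points have an adjusted p under 0.05 in the unblocked fit. The terminal complement genes other than C8g lie left of 0 with both forms, Masp1 lies right of 0, and no point of the hairpin comparison is filled.

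In the lectin pathway, Masp1 rose. It encodes a protease bound to mannose-binding lectin that activates the pathway. The Masp1 signal was 7.43, 6.75 and 7.64 with EGFP, 8.33, 8.28 and 8.57 with wild-type and 8.18, 7.86 and 8.001 with S724A. No IRE1a array was as low as the EGFP arrays, and the changes were 1.12 ± 0.20 (adjusted p = 0.00309, limma) and 0.74 ± 0.20 (adjusted p = 0.0437, limma), or 2.17-fold and 1.67-fold higher.

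All 5 Masp1 probe sets were higher with wild-type, by 0.28 to 1.12, and the one used can pick up more than 1 transcript. The S724A rise was lost in 7 of 15 alternative settings, 5 of which leave out 1 array (EGFP 1 or 2, or any S724A array), with adjusted p up to 0.189. The lectins and the other protease did not pass. Mbl2 read 11.44, 11.72 and 11.58 with EGFP, 11.74, 11.90 and 11.81 with wild-type and 11.23, 11.71 and 11.86 with S724A. Mbl1 changed by 0.04 ± 0.12 and Masp2 by -0.14 ± 0.13 with wild-type.

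Neither convertase gene passed in the unblocked fit. Cfb (factor B, the protease of the alternative pathway convertase) read 8.50, 8.58 and 8.58 with EGFP, 8.09, 7.90 and 7.80 with wild-type and 8.23, 8.37 and 9.01 with S724A. With wild-type it lay below both other groups, by -0.62 ± 0.28 from EGFP (adjusted p = 0.217, limma; 0.0383 with the block). Its neighbour C2, the corresponding protease of the classical and lectin pathways, is read through a probe set that may also bind other transcripts. That probe set changed by -0.20 ± 0.14 with wild-type and -0.34 ± 0.14 with S724A. The other C2 probe sets changed by -0.08 ± 0.18 and -0.26 ± 0.21 with wild-type. With S724A they changed by 0.02 ± 0.18 and 0.02 ± 0.21, so they did not show the lower S724A signal.

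Cfi, the protease that cuts C3b and C4b and so shuts the convertases down, fell with wild-type. The Cfi signal was 11.33, 11.40 and 11.45 with EGFP, 10.76, 10.81 and 10.77 with wild-type and 10.96, 11.30 and 10.94 with S724A. The S724A arrays lay between the other groups; the changes were -0.61 ± 0.13 (adjusted p = 0.00700, limma) and -0.33 ± 0.13 (adjusted p = 0.131, limma). C4bp, its cofactor for C4b, changed by -0.30 ± 0.20 and -0.26 ± 0.20.

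The terminal pathway held the largest fall among the 35. Hc encodes C5, which the convertases split to start the pore. The Hc signal was 8.98, 8.60 and 9.20 with EGFP, 7.15, 6.62 and 7.44 with wild-type and 7.48, 7.02 and 7.47 with S724A. Every IRE1a array was more than 1 log2 unit below every EGFP array, and the changes were -1.86 ± 0.21 (adjusted p = 5.97e-05, limma) and -1.61 ± 0.21 (adjusted p = 0.000246, limma), or 3.63-fold and 3.04-fold lower.

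C6, which joins C5b next, read 7.27, 6.90 and 7.53 with EGFP, 6.38, 6.37 and 6.94 with wild-type and 6.89, 6.60 and 6.86 with S724A. EGFP and wild-type overlapped at 6.90 and 6.94, and the change of -0.67 ± 0.19 was just past the threshold (adjusted p = 0.0495, limma); 8 of 15 alternatives lost it, among them those without EGFP replicate 1 or 3 or wild-type replicate 1 or 2, with adjusted p up to 0.185. With S724A the change was -0.45 ± 0.19 and did not pass.

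C8a, the alpha chain of C8, read 8.48, 8.40 and 8.75 with EGFP, 7.57, 7.29 and 7.41 with wild-type and 7.92, 8.08 and 7.54 with S724A. C9, which forms the wall of the pore, read 10.71, 10.68 and 10.89 with EGFP, 10.13, 9.71 and 9.99 with wild-type and 10.37, 10.49 and 10.36 with S724A. Both genes lay below EGFP with both forms, by -1.12 ± 0.44 and -0.81 ± 0.28 with wild-type, where the adjusted p by limma was 0.152 and 0.0934 without the block and 0.000551 and 0.000569 with it.

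C8b, the neighbour of C8a, changed by -0.65 ± 0.28 with wild-type (adjusted p = 0.190, limma; 0.00151 with the block). C8g, the gamma chain, read 10.57, 10.39 and 10.58 with EGFP and 10.65, 10.60 and 10.42 with wild-type, a change of 0.04 ± 0.26. With the block, 5 of the 6 terminal genes had fallen with wild-type, where 4.99% of all genes fell, and C8g was the exception. Without the block, only Hc and C6 of the terminal genes passed.

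**Figure D3:**
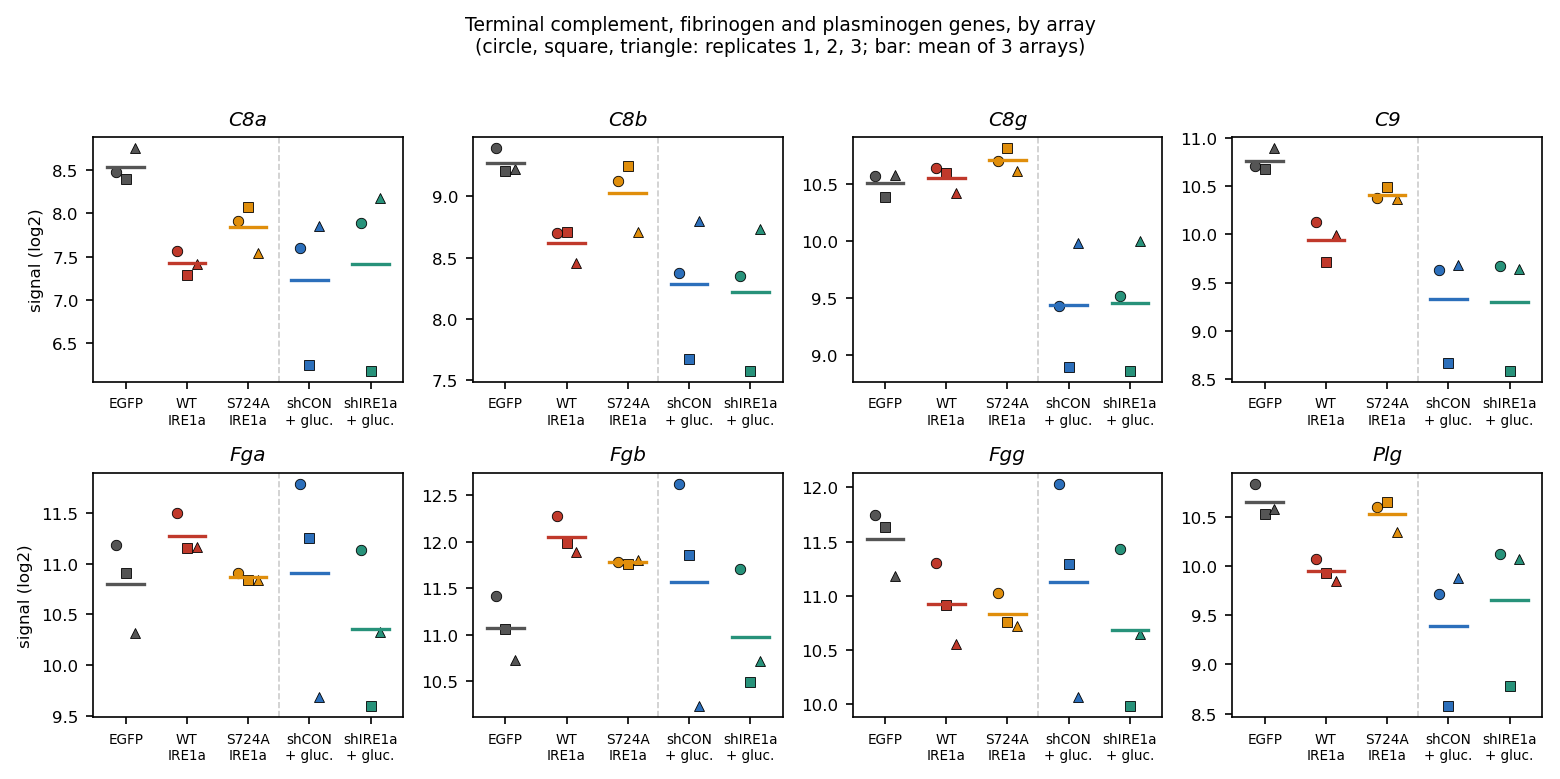
Deposited log2 signal (vertical axis) of 4 terminal complement genes, the 3 fibrinogen chains and plasminogen by group (horizontal axis; gluc., glucagon); symbols are replicates 1, 2 and 3, bars are means of 3 arrays and the dashed line parts the arms. In both hairpin groups the squares (replicate 2) of C8a, C8b, C8g, C9 and Plg lie lowest.

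Wild-type and S724A IRE1a were compared directly to ask whether the mutated site made a difference. None of the 35 passed (adjusted p from 0.803 upward, limma), and 0.00% of all genes did; with the block the count was again 0, against 0.0123% of all genes. At an unadjusted p under 0.05 there were 3 of the 35, Vtn, Cfi and Cfb, all lower with wild-type, against 6.12% of all genes. The wild-type and S724A arrays did not overlap in 10 of the 35 (13.3% of all genes): Klkb1, Plg, Vtn, Cfb, Cfi, C8b and C9 were lower and Fga, Fgb and Masp1 higher with wild-type.

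The largest difference between the forms was that of Cfb, -0.61 ± 0.28, with a 95% confidence interval from -1.21 to -0.01. Vtn differed by -0.45 (interval -0.83 to -0.06) and Cfi by -0.29 (interval -0.55 to -0.02). For the genes that fell with both forms the intervals spanned 0: -0.34 to 0.25 for F2, -0.18 to 0.47 for F7, -0.39 to 0.49 for Proc, -0.43 to 0.11 for F12 and -0.70 to 0.19 for Hc. The half-widths over the 35 ran from 0.22 to 0.95, so differences of that size could have been missed.

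With glucagon present, the hairpin against IRE1a was compared with the control hairpin to ask what its loss did. None of the 35 passed, where 0.233% of all genes did; with the block the count stayed at 0, against 1.23%. At an unadjusted p under 0.05 there were 2, F11 and Mbl1, against 7.73% of all genes. The changes ran from -0.62 for F11 to 0.36 for F5, with a median of 0.00.

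F11 read 10.12, 9.66 and 9.75 with shCON and 9.65, 8.73 and 9.31 with shIRE1a. It was the only 1 of the 35 whose groups did not overlap (11.5% of all genes), and its change of -0.62 ± 0.24 had an adjusted p of 0.553 (limma). Hc read 7.98, 7.63 and 7.91 with shCON and 8.0002, 7.64 and 7.89 with shIRE1a, a change of 0.00 ± 0.21. F2 changed by -0.01 ± 0.14, F7 by 0.00 ± 0.15, Proc by 0.01 ± 0.20, F12 by 0.04 ± 0.13 and Masp1 by 0.12 ± 0.20. The 95% interval for Hc, -0.44 to 0.45, and that for F2, -0.31 to 0.29, leave room for changes smaller than those with the IRE1a viruses.

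The arrays of the 72-hour arm differed among themselves far more in these genes than those of the 48-hour arm. The median SD of the 35 within a group was 0.14 to 0.16 in the 48-hour groups and 0.31 and 0.38 with shCON and shIRE1a, while over all genes it was 0.12 to 0.16 in the 5 groups. In each hairpin group 12 of the 35 spread over more than 1 log2 unit, and in the 48-hour groups none did. Fgb read 12.62, 11.86 and 10.23 with shCON and 11.71, 10.49 and 10.72 with shIRE1a.

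C8a read 7.60, 6.25 and 7.85 with shCON and 7.88, 6.18 and 8.18 with shIRE1a. Replicate 2 was low in both groups, and the same holds for the mean of C8a, C8b and C9, at 8.54, 7.53 and 8.78 with shCON and 8.63, 7.45 and 8.85 with shIRE1a. The fibrinogen chains followed another order, with means of 12.15, 11.47 and 9.99 with shCON and 11.43, 10.02 and 10.57 with shIRE1a. With shCON the fibrinogen mean was lowest in replicate 3, and with shIRE1a it was lowest in replicate 2, as were the pore genes. Plg, of fibrinolysis, read 9.72, 8.58 and 9.88 with shCON and 10.12, 8.78 and 10.07 with shIRE1a, so replicate 2 was low there too. The difference in order is thus one between the fibrinogen chains and the pore genes, not between clotting and complement as a whole. The labels do not say what the replicate numbers stand for.

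The control hairpin with glucagon was set beside EGFP as the other control virus. These groups differ in virus, time in culture and glucagon together, which cannot be told apart. Of the 35, 15 were lower and 2 higher past the threshold, where 6.74% of all genes fell and 9.34% rose. The lower genes were F7, F9, F10, F12, F13b, Serpinc1, Plg, Vtn, Mbl1, Cfi, Hc, C6, C8b, C8g and C9, and the higher ones were F11 and Mbl2. Without EGFP replicate 3 the count was 9. F7, F9, F11, F12, Serpinc1, Vtn, Hc and C9 passed in all 15 alternative settings, while F10, F13b, Plg, Mbl1, Mbl2, Cfi, C6, C8b and C8g were each lost on leaving out 1 array, and each of the 6 arrays lost at least 1 of them.

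Hc was lower here too, at 7.63 to 7.98 against 8.60 to 9.20, a change of -1.09 ± 0.21 (adjusted p = 0.00364, limma). Serpinc1 read 11.13, 11.02 and 11.17 with shCON, below the 11.98 to 12.16 of EGFP, and the change was -0.95 ± 0.10 (adjusted p = 6.24e-05, limma). C8g, the terminal gene at 0.04 with wild-type IRE1a, read 9.43, 8.90 and 9.98 with shCON, a change of -1.08 ± 0.26 (adjusted p = 0.0125, limma). C9 changed by -1.43 ± 0.28, and 5 of the 6 terminal genes were lower past the threshold, where 6.74% of all genes fell. The other, C8a, at -1.31 ± 0.44, did not pass (adjusted p = 0.0586, limma).

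F11 was 8.67, 8.26 and 8.35 with EGFP and rose by 1.42 ± 0.24 to its shCON values (adjusted p = 0.00161, limma), while its neighbour Klkb1 changed by 0.27 ± 0.14. Of the genes that fell with both IRE1a viruses, F7 changed here by -0.91 ± 0.15 and F12 by -0.54 ± 0.13 (adjusted p = 0.00163 and 0.0119, limma). F2 lay below EGFP on every shCON array, by -0.40 ± 0.14, but did not pass (adjusted p = 0.0640, limma). EGFP had the highest mean of the 5 groups for F2, F7, F12, Hc, Cfi and C6. Proc, which also fell with the IRE1a viruses, went another way: it read 10.45, 10.38 and 9.64 with shCON, a change of 0.03 ± 0.20. Mbl2 read 12.39, 12.28 and 11.80, and its rise of 0.58 ± 0.18 (adjusted p = 0.0429, limma) was lost in 7 of 15 settings, among them those without any 1 EGFP array and without shCON replicate 1 or 2. Beside these values, 3 of 15 hepatocyte markers rose (Cebpa, Prox1 and Tat) and 3 fell (Apoa2, Asgr1 and Asgr2). Their summed log2 signal was 151.5 to 155.2 with EGFP and 153.3 to 155.9 with shCON. Of the other cell types' markers Cdh5 rose and Tek, Acta2, Reln and Cldn7 fell. The summed log2 signal of the Kupffer cell and macrophage list was 69.0 to 70.8 with EGFP and 67.1 to 68.8 with shCON, and that of the lymphocyte and neutrophil list 31.8 to 33.1 and 29.9 to 31.6, so both were lower with shCON on every array. The sum of the stellate list, 51.8 to 52.5 with EGFP and 49.99 to 50.38 with shCON, was also lower with shCON on every array. The sum of the endothelial list was 56.1 to 57.5 with EGFP and 55.6 to 57.3 with shCON. That of the bile duct list was 27.3 to 28.4 and 26.6 to 28.3, so in these lists the groups overlapped. Vwf, Lrat, Col3a1 and Krt7 were under 4 in both groups, and the part of these markers in the result was not tested.

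Most of the genes for processing and carrying clotting factors that passed the threshold with IRE1a rose. The list of vitamin K cycle and factor secretion genes had 10 members, all tested. Ggcx, Vkorc1, Calu, Lman1 and Mcfd2 rose and Furin fell in each comparison with EGFP, whose arrays both share, where 5.08% of all genes rose and 2.59% fell with wild-type and 3.87% and 2.25% with S724A. The list was chosen with earlier results of these data known, so its counts are no independent test against those shares. Rises were 66.2% and 63.3% of all genes called. After quantile normalisation 4 of the list rose and 1 fell in each comparison, and rises were 55.4% and 48.3% of all genes called. Their median change was 0.54 with wild-type and 0.57 with S724A, against 0.00 and -0.01 for all genes. None passed between the 2 forms or with the IRE1a hairpin.

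Lman1 and Mcfd2 encode the receptor complex that carries factors V and VIII out of the endoplasmic reticulum. Lman1 read 10.13, 9.83 and 9.96 with EGFP, 11.28, 11.24 and 11.31 with wild-type and 11.48, 11.48 and 11.33 with S724A. Mcfd2 read 11.17, 10.99 and 11.17 with EGFP, 12.18, 12.25 and 12.32 with wild-type and 12.08, 12.24 and 12.05 with S724A. Both were clear of EGFP by more than 0.8 on every array; Lman1 rose by 1.30 ± 0.11 and 1.45 ± 0.11 (adjusted p = 3.77e-06 and 1.06e-06, limma) and Mcfd2 by 1.14 ± 0.10 and 1.02 ± 0.10 (adjusted p = 5.78e-06 and 1.54e-05, limma).

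Ggcx, the carboxylase itself, read 5.30, 5.77 and 5.44 with EGFP, 6.35, 6.48 and 6.91 with wild-type and 6.39, 6.71 and 6.47 with S724A, rises of 1.08 ± 0.19 and 1.02 ± 0.19 (adjusted p = 0.00232 and 0.00409, limma). Vkorc1, the reductase that recycles vitamin K and the target of warfarin, read 10.13, 10.01 and 10.47 with EGFP, 11.19, 11.12 and 11.63 with wild-type and 10.84, 11.02 and 11.14 with S724A. It rose by 1.11 ± 0.15 and 0.80 ± 0.15 (adjusted p = 0.000335 and 0.00532, limma). Calu (calumenin, an inhibitor of the carboxylase) rose by 0.66 ± 0.17 and 0.69 ± 0.17 (adjusted p = 0.0311 and 0.0296, limma), and both calls were fragile: the first was lost without any 1 of its 6 arrays and the second without any except EGFP replicate 1, with adjusted p up to 0.136.

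Furin, a Golgi protease that removes propeptides, was the member that fell. It read 9.38, 9.14 and 9.13 with EGFP, 7.87, 7.47 and 7.42 with wild-type and 7.98, 7.53 and 7.54 with S724A, changes of -1.63 ± 0.15 and -1.53 ± 0.15 (adjusted p = 9.97e-06 and 1.71e-05, limma). Vkorc1l1, Nqo1, Tpst1 and Tpst2 did not pass with either form in the unblocked fit. With shCON and glucagon against EGFP, Ggcx, Calu and Tpst2 were higher and Furin and Tpst1 lower past the threshold. Over all genes, 9.34% rose and 6.74% fell there. After quantile normalisation 2 of the list rose and 3 fell, and after median centring 3 rose and 1 fell. Lman1 and Mcfd2 were at -0.23 ± 0.11 and 0.01 ± 0.10. Ggcx, at 0.96 ± 0.19, Calu, at 0.58 ± 0.17, and Furin, at -0.49 ± 0.15, had the sign seen with IRE1a. Furin was lost without any 1 of the 6 arrays, Tpst1 without EGFP replicate 1 or 3 or shCON replicate 1 or 2, and Calu without EGFP replicate 2 or 3 or shCON replicate 1; without the last the change of Calu was 0.36.

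**Figure D4:**
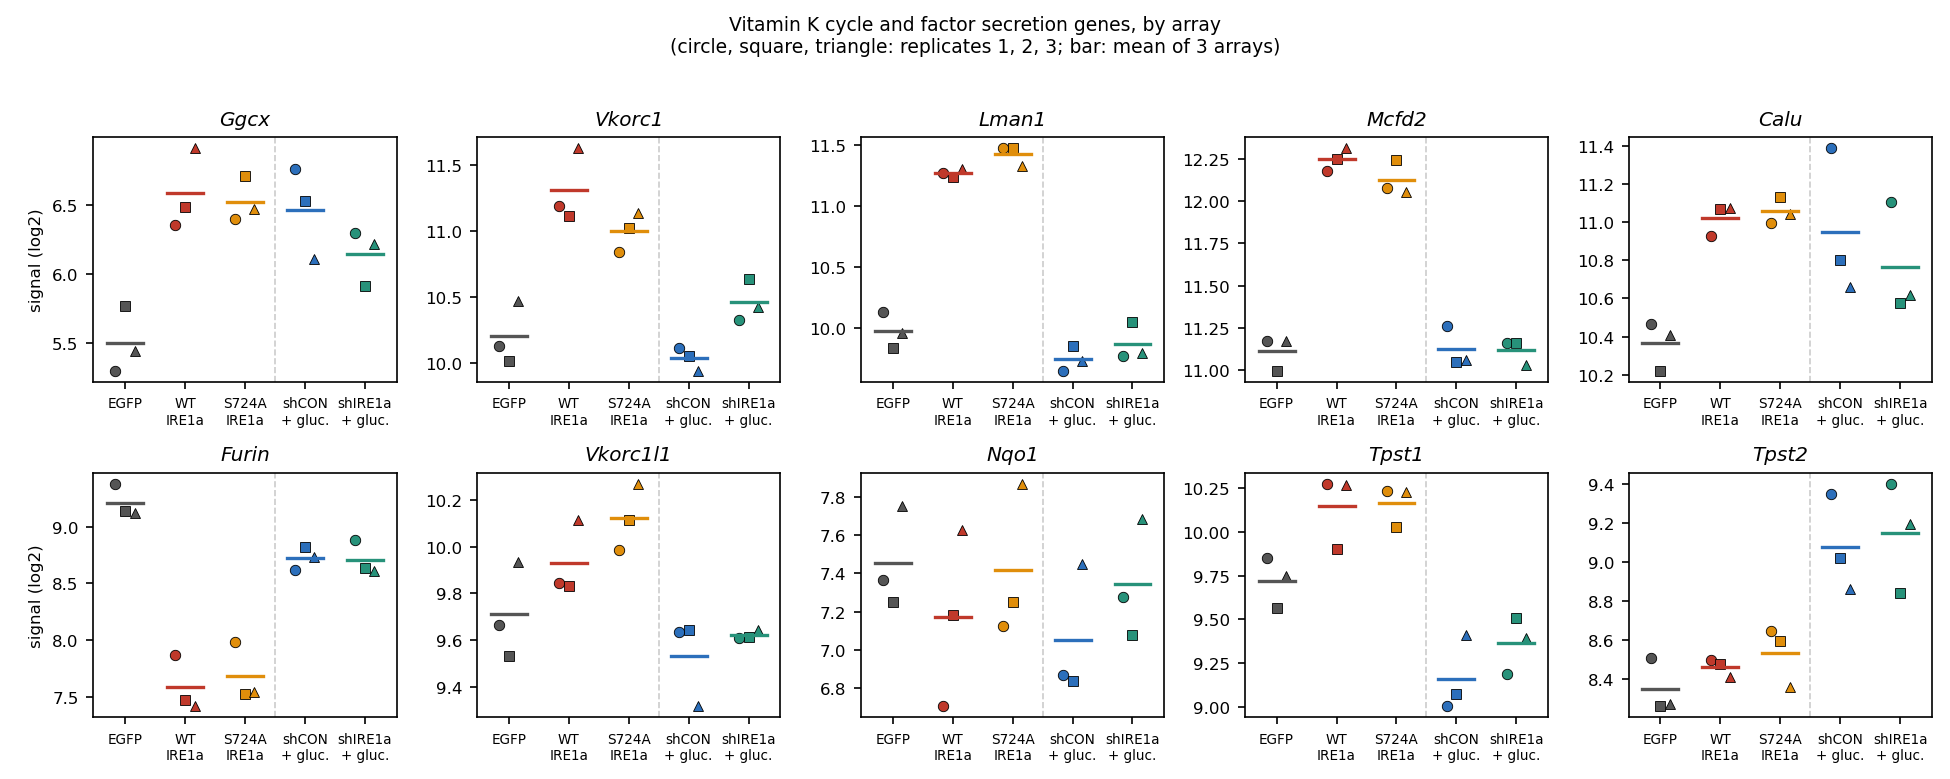
Deposited log2 signal (vertical axis) of the 10 vitamin K cycle and factor secretion genes by group (horizontal axis; gluc., glucagon); symbols are replicates 1, 2 and 3, bars are means of 3 arrays and the dashed line parts the arms. Lman1, Mcfd2 and Vkorc1 are higher and Furin lower with both forms of IRE1a than with EGFP.

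Of 19 further coagulation and fibrinolysis genes tested, F2r (a thrombin receptor) rose by 0.60 ± 0.16 with wild-type and F13a1 fell by 0.41 ± 0.11 with S724A, and no other passed in these 2 comparisons. That is 1 of 19 in each, where 5.08% of all genes rose with wild-type and 2.25% fell with S724A. Each was lost without any of 4 of its 6 arrays: EGFP replicates 2 and 3 and wild-type replicates 1 and 3 for F2r, and replicates 2 and 3 of EGFP and of S724A for F13a1. With the block, 4 of the 19 rose with wild-type (10.6% of all genes), and 3 rose and 2 fell with S724A (8.89% and 5.52% of all genes). Of 20 further complement genes, Serping1 fell with both forms. It encodes the C1 inhibitor, which blocks C1, the MASP proteases, factor XII and kallikrein, and read 11.07, 11.04 and 11.12 with EGFP, 10.40, 9.97 and 9.83 with wild-type and 10.18, 9.96 and 9.87 with S724A. All IRE1a arrays were lower, by -1.01 ± 0.25 and -1.07 ± 0.25 (adjusted p = 0.0211 and 0.0187, limma). The wild-type call was lost without any array except wild-type replicate 1, and the S724A call without replicates 2 or 3 of EGFP or of S724A, with adjusted p up to 0.0869; with the block it was 0.000859 and 0.000744. It was the 1 of 20 that passed in each comparison, where 2.59% and 2.25% of all genes fell.

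With shCON and glucagon against EGFP, 5 of the 19 further coagulation genes rose and 1 fell, where 9.34% of all genes rose and 6.74% fell. Procr (the endothelial protein C receptor) changed by 3.35 ± 0.51, Thbs1 (thrombospondin 1) by 2.63 ± 0.62, Thbd (thrombomodulin, the cofactor with which thrombin activates protein C) by 2.52 ± 0.36, F2r by 1.27 ± 0.16 and Hrg (histidine-rich glycoprotein) by -1.12 ± 0.24. The other was Anxa2, which was lost without EGFP replicate 3 or shCON replicate 1 or 2, and Thbs1 was lost without shCON replicate 1 (adjusted p = 0.0578, limma). Of the 20 further complement genes, Clu (clusterin, an inhibitor of the terminal complex) rose by 1.40 ± 0.23 and Cfp (properdin) by 0.75 ± 0.15. Cd59a was the 1 that fell, a call lost without EGFP replicate 1 or 3 or shCON replicate 2 or 3.

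Fibrinogen and several complement genes belong to the acute phase response, in which the liver raises some plasma proteins and lowers others during inflammation. Of 19 other acute phase genes tested, Orm3 rose by 0.71 ± 0.13 and Itih4 fell by 1.48 ± 0.18 with wild-type, and Saa3 rose by 2.54 ± 0.66 and Itih4 fell by 1.31 ± 0.18 with S724A. Over all genes, 5.08% rose and 2.59% fell with wild-type, and 3.87% rose and 2.25% fell with S724A. Saa3 read 9.91, 10.44 and 13.59 with S724A, against 8.34 to 9.11 with EGFP, and without S724A replicate 3 its change was 1.41 ± 0.33. Leaving out EGFP replicate 1, 2 or 3 ended the call (adjusted p up to 0.152, limma). With the block, 3 of the 19 rose and 1 fell with each form, where 10.6% of all genes rose and 4.99% fell with wild-type and 8.89% and 5.52% with S724A. Against EGFP, shCON with glucagon gave 1 rise (Cp) and 3 falls (Apcs, Itih4 and Serpina3n) in the unblocked fit. Over all genes, 9.34% rose and 6.74% fell there. Itih4 changed by -0.64 ± 0.18 in that comparison, and each of these calls was lost on leaving out any of several single arrays. The median change of the 19 was 0.26 with wild-type and 0.33 with S724A, beside -0.29 and -0.12 for the 35 clotting and complement genes. The list also holds Ahsg, which the response lowers, so its median is no measure of that response. Neither list of further genes nor the acute phase list had a gene past the threshold between the 2 forms of IRE1a or with the IRE1a hairpin in the unblocked fit. With the block, Anxa2 and Thbs1 of the further coagulation genes fell with that hairpin, where 1.23% of all genes passed in either direction. Their changes were -0.56 and -1.03 (adjusted p = 0.0126 and 0.00672 with the block, 0.488 and 0.712 without, limma). In both genes the arrays of the 2 groups overlapped.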

How the data were processed

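The 15 Affymetrix mouse expression arrays carried RNA of 5 groups, 3 arrays each. Per the submitters' processing notes the authors used GCRMA, with no version named in the labels; from their range, the deposited values are log2 signals. Of 45101 probe sets, 34945 had 1 gene symbol, and the probe set with the highest mean over the 15 arrays stood for its gene. Genes reaching 4 in at least 3 arrays were tested (16294).

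Group means were fitted over the 15 arrays together in R 4.3.3 with limma 3.58.1 (lmFit, eBayes, 10 residual degrees of freedom). The fit had 5 contrasts and two-sided p-values adjusted by Benjamini-Hochberg at 0.05. It was run on simulated data whose arrays were independent, so that run does not cover the correlation between same-number arrays. Changes carry limma's SE; the number of arrays limits precision. Same-number arrays of an arm correlated in all 12 pairs (residual r from 0.20 to 0.69), so the number was also fitted as a block within each arm; across arms 4 of 18 pairs exceeded 0.1. Alternatives were scaling, dim filters, a floor, the arrays fitted, the variance model, the probe set rule, the block and leaving out each array.

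Arrays were grouped by their labels. The members and all lists were chosen with earlier results of these data known. Values by array are given for members past the threshold within an arm, for the member of each role with the highest mean, and for some that passed only with the block; of other lists, at most 5 genes past the threshold per comparison. Promoters were from RefSeq tables (GRCm38.p6), with 30 of 37 genes matched.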

Additional observations from a re-analysis of the deposited data

How the results depend on the processing

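Of the 35 genes, 8 passed the threshold with wild-type IRE1a; the count was 14 when only the 6 arrays compared were fitted and 15 with the replicate block, and 7 to 9 under the other scaling, filter, floor, variance and probe set settings. For the fit of the 6 arrays alone, no share over all genes was taken. Leaving out each array in turn gave 7 to 8 with wild-type, 4 to 6 with S724A, and 9 to 17 for shCON with glucagon against EGFP. The count was 0 under every setting run, each array left out included, between the 2 forms of IRE1a and with the IRE1a hairpin. With the replicate number as a block over both arms, shCON with glucagon against EGFP gave 20 genes (adding F2, Masp2 and C8a) in place of 17. Same-number arrays of different arms had residual r from only -0.08 to 0.23, so that pairing, and the genes it added, have little basis. No called change reversed; over 2625 gene values, 36 gained and 51 lost the threshold, and 126 changes that never passed took the other sign. Under each scaling the median change of all genes lay between -0.06 and 0.04, but the share of rises among all genes called went from 66.2% as deposited to 55.4% after quantile normalisation and 70.0% after median centring with wild-type, from 63.3% to 48.3% and 68.3% with S724A, and from 58.1% to 45.2% and 66.3% for shCON against EGFP. For genes outside the 35, leaving out each array and, for the vitamin K list, rescaling were added after the data were seen. With 3 arrays a group, the 95% intervals of the 35 genes reached, at the median, 0.44 to either side of the change.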
